A study of Mus musculus with 4 samples.

Results

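Genes that mark dendritic cells were followed in popliteal lymph nodes (PLNs), which drain the hind paw and knee of the mouse. They were chosen as known marker genes and not by a threshold on measured values, but with earlier results of these data known. All 10 of them were found among the 32287 genes of the deposited tables. They are Xcr1 and Clec9a (type 1 conventional dendritic cells), Cd209a (type 2 conventional dendritic cells), Siglech (plasmacytoid dendritic cells), Itgax, Flt3 and Zbtb46 (shared by conventional dendritic cells), and Fscn1, Ccl22 and Ccl17 (mature dendritic cells). PLN sections of male C57BL/6 mice lay on 4 Visium capture areas of 1 slide, on which a grid of barcoded spots captures polyadenylated RNA and each captured molecule is counted once by its unique molecular identifier (UMI). The WT area held 10 PLNs from 5 wild-type mice aged 5.5 months, the Early area 6 PLNs from 3 TNF-Tg mice aged 5.5 months with early arthritis, and the Advanced 1 and Advanced 2 areas each 6 PLNs from 3 TNF-Tg mice aged 8.5 to 9 months with advanced arthritis. TNF-Tg mice carry a human TNF transgene and develop inflammatory-erosive arthritis. Evan's blue dye had been injected into the hind paw of all mice to find the nodes. The nodes of an area share 1 library and were not separated, so the area and not the mouse was the sample. Age and disease stage cannot be told apart between the Early and Advanced groups, nor age and genotype between the WT and Advanced groups.

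Dendritic cells take up antigen in tissues or in the node itself and present it to T cells in the paracortex, the T-cell zone of the node. Type 1 cells, which bear the chemokine receptor XCR1 and the dead-cell receptor CLEC9A, present captured antigen to CD8 T cells, type 2 cells mainly to CD4 T cells, and plasmacytoid cells are a source of type I interferon. FLT3 is the receptor for the growth factor that sustains the lineage, ZBTB46 is a transcription factor of conventional dendritic cells, and the integrin chain encoded by Itgax (CD11c) is also made by some macrophages. Upon maturation dendritic cells raise the actin-bundling protein fascin (Fscn1) and CCR7, follow CCL19 and CCL21 into the paracortex, and release CCL22 and CCL17, both ligands of CCR4 on T cells.

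Ccl22 (ENSMUSG00000031779) and Ccl17 (ENSMUSG00000031780), the members that differed most between conditions below, are neighbours on the forward strand of chromosome 8 in GRCm38, at chr8:94745590-94751699 and chr8:94810453-94812036, with 58754 bases from the end of the former to the start of the latter. The 250 bases before the RefSeq start site of each are printed here (GRCm38.p6, forward strand, chr8:94745434-94745683 and chr8:94810203-94810452). They are shown because these chemokine genes lie close together and were both highest on the WT area. The stretch printed for Ccl22 ends inside its interval above, which is from GENCODE, so GENCODE and RefSeq place the start of Ccl22 differently. Distances to a start site below are from the RefSeq start.
Ccl22: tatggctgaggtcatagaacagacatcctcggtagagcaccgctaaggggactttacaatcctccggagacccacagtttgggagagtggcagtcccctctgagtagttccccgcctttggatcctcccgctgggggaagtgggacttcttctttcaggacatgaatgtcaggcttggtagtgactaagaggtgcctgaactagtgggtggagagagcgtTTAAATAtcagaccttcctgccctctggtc
Ccl17: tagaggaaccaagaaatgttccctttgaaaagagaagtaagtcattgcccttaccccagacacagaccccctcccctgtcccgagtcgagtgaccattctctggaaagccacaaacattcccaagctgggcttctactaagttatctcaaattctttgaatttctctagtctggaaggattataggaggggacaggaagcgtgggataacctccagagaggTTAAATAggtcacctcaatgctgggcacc
The capitals mark TTAAATA, a stretch that resembles a TATA box. It was chosen after these promoters had been read, starts 30 bases before the start site of Ccl22 and 29 before that of Ccl17, and stood on either strand in 4.51% of 32851 RefSeq promoter windows of the same 300 bases (250 before to 50 after the start). Neither window held a PU.1 motif (GAGGAAG, in 13.6% of all windows), an AP-1 motif (TGANTCA, 7.81%) or TATAAA (13.6%) on either strand. The windows of Itgax and Zbtb46 held 1 AP-1 match each, TGAGTCA and TGACTCA. Of the 10 members' windows 4 held TATAAA, that of Fscn1 on the strand of the gene 31 bases before its start, and those of Clec9a, Cd209a and Xcr1 on the opposite strand and farther from the start. These matches describe letters and not bound sites.

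All 10 genes were captured on each area, sparsely. The areas held 833 spots and 1808678 UMIs (WT), 1489 spots and 5180493 UMIs (Early), 2015 spots and 3378219 UMIs (Advanced 1), and 1782 spots and 3198238 UMIs (Advanced 2). Of these, the members supplied 845, 1748, 1359 and 1124 UMIs, or 4.67, 3.37, 4.02 and 3.51 per 10000, respectively. Their sum was thus highest on the WT area, where the 95% Poisson intervals of its ratio to each other area lay above 1. At least 1 member was detected in 32.1% of WT, 34.3% of Early, 27.3% of Advanced 1 and 27.9% of Advanced 2 spots. Median depths differed, however, at 282, 414, 287 and 398.5 UMIs per spot. After spots with at least 500 UMIs had been thinned to 500 each, the shares were 23.3% of 356 WT spots, 16.7% of 707 Early spots, 17.1% of 803 Advanced 1 spots and 17.8% of 815 Advanced 2 spots, and the WT area was highest. A spot covers several cells, so these are shares of spots and not of dendritic cells, and intervals for single areas cover counting error only.

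**Figure D1:**
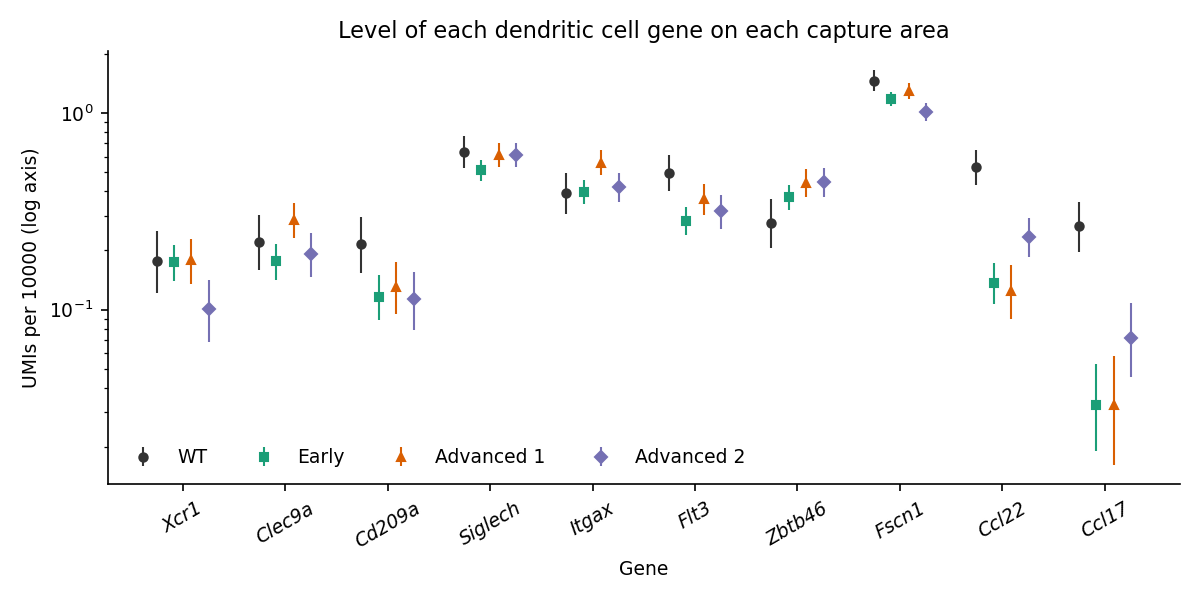
UMIs per 10000 of the area's total (log axis) for each dendritic cell gene on the 4 capture areas, with 95% Poisson intervals as bars. For Ccl22 and Ccl17 the WT point (0.531 and 0.265) lies above those of all 3 TNF-Tg areas, and for the other genes the points lie closer together.

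Summed over whole areas, some members varied little. Siglech, an endocytic receptor of plasmacytoid cells, took 0.636 of every 10000 UMIs on the WT, 0.512 on the Early, 0.613 on the Advanced 1 and 0.613 on the Advanced 2 area. Fscn1 took 1.46, 1.18, 1.30 and 1.01, in the same order, and supplied 1635 of the members' 5076 UMIs. Itgax took 0.393, 0.396, 0.559 and 0.419. The highest and lowest area were thus less than 1.5-fold apart for each of these genes in whole-area sums. Within the T-rich spots defined below, the WT level of Fscn1 was 2.02-fold that of Early (95% counting interval 1.48 to 2.76), 1.95-fold that of Advanced 1 (1.42 to 2.67) and 1.83-fold that of Advanced 2 (1.34 to 2.49), and in interior spots 1.67-fold (1.26 to 2.20), 1.42-fold (1.09 to 1.83) and 1.83-fold (1.37 to 2.43). Between Advanced and WT Fscn1 passed in neither class (adjusted p = 0.117 in T-rich and 0.522 in interior spots in edgeR). T-rich spots were not matched for T-cell content. Their T-cell genes summed to 38.4 per 10000 on the WT area and to 24.2, 24.6 and 29.5 on the others. In 4 classes by T-cell share, given below, Fscn1 took 1.63 in WT class 3, with T-cell genes at 22.6. In class 4, the highest, of the TNF-Tg areas it took 1.15, 1.46 and 1.48, with T-cell genes at 25.4, 27 and 33.9. Itgax in interior spots was lower on the WT area than on Advanced 1, at 0.50-fold (0.266 to 0.869), and its intervals against Early and Advanced 2 included 1.

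The conventional dendritic cell genes stood in different orders over the areas, and none of them passed the tests between conditions below. Flt3 took 0.498 of every 10000 UMIs on the WT area and 0.284, 0.364 and 0.316 on the Early, Advanced 1 and Advanced 2 areas. Zbtb46 took 0.276 on the WT area and 0.373, 0.441 and 0.444 on the TNF-Tg areas, where the counting interval of WT over Early included 1 (0.532 to 1.02). Cd209a, a C-type lectin, took 0.216 on the WT area against 0.116, 0.130 and 0.113. The WT area was thus highest for Flt3 and lowest for Zbtb46. It was also highest for Cd209a, but only through its rim spots: in interior spots, defined below, Cd209a took 0.027 (1 UMI) on the WT area and 0.119, 0.159 and 0.097 on the TNF-Tg areas. Over whole areas the type 1 genes did not separate the conditions. Clec9a took 0.221, 0.176, 0.284 and 0.191. Xcr1 took 0.177, 0.174, 0.178 and 0.100, the low value being that of the Advanced 2 area. In interior spots Clec9a was lowest on the WT area, but its counting intervals against each TNF-Tg area included 1. In T-rich spots, defined below, its WT level was 0.28-fold that of Advanced 1 (0.054 to 0.936), on 3 and 23 UMIs. There its intervals against Early and Advanced 2 included 1.

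Ccl22 and Ccl17 differed most. Ccl22 gave 96 UMIs on the WT area (0.531 per 10000, 95% interval 0.43 to 0.648), 71 on the Early (0.137), 42 on the Advanced 1 (0.124) and 75 on the Advanced 2 area (0.235). Ccl17 gave 48 (0.265 per 10000, 95% interval 0.196 to 0.352), 17 (0.0328), 11 (0.0326) and 23 (0.0719). The WT intervals lay above those of every TNF-Tg area for both genes, and Advanced 2 was the highest of the TNF-Tg areas. Ccl22 was found in 8.04% of WT spots against 3.76% of Early, 1.74% of Advanced 1 and 3.14% of Advanced 2 spots, and in 3.37%, 0.566%, 0.623% and 1.72% of the thinned spots. Thinned shares of Ccl17 rested on few spots (0.562% on the WT area) and give no order.

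Advanced was compared with WT in counts summed per area, with edgeR's quasi-likelihood test and Benjamini-Hochberg adjustment over 13102 genes. All 10 members passed the filter on low counts. The spread came from the 2 Advanced areas alone (1 residual degree of freedom). It was pooled fully over genes, so a gene's own spread between these areas had no weight in its p-value. A p-value thus measures the spread that genes of a like level showed between 2 areas of pooled nodes. Ccl22 was lower in Advanced, with an edgeR log2 difference of -1.68 ± 0.30 (standard error; adjusted p = 4.27e-06), or 3.20-fold. Ccl17 was lower with an edgeR log2 difference of -2.46 ± 0.47 (standard error; adjusted p = 2.95e-05), or 5.49-fold. Both Advanced areas lay below the WT area for each. The 2 members are to be read against a background of 1.34% of all genes lower and 0.733% higher in Advanced (2.08% in either direction). The other 8 members did not pass, with log2 differences from -0.94 for Cd209a (standard error 0.39) and -0.66 for Flt3 (standard error 0.27) to 0.57 for Zbtb46 (standard error 0.29). At an unadjusted p under 0.05 in edgeR there were 5 members, Ccl22 and Ccl17 included, against 1408 of 13102 genes. The median over the 10 members was -0.45, against 0.01 over all genes tested. In bulk sums such as these, fewer cells of a type and less RNA per cell cannot be told apart.

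**Figure D2:**
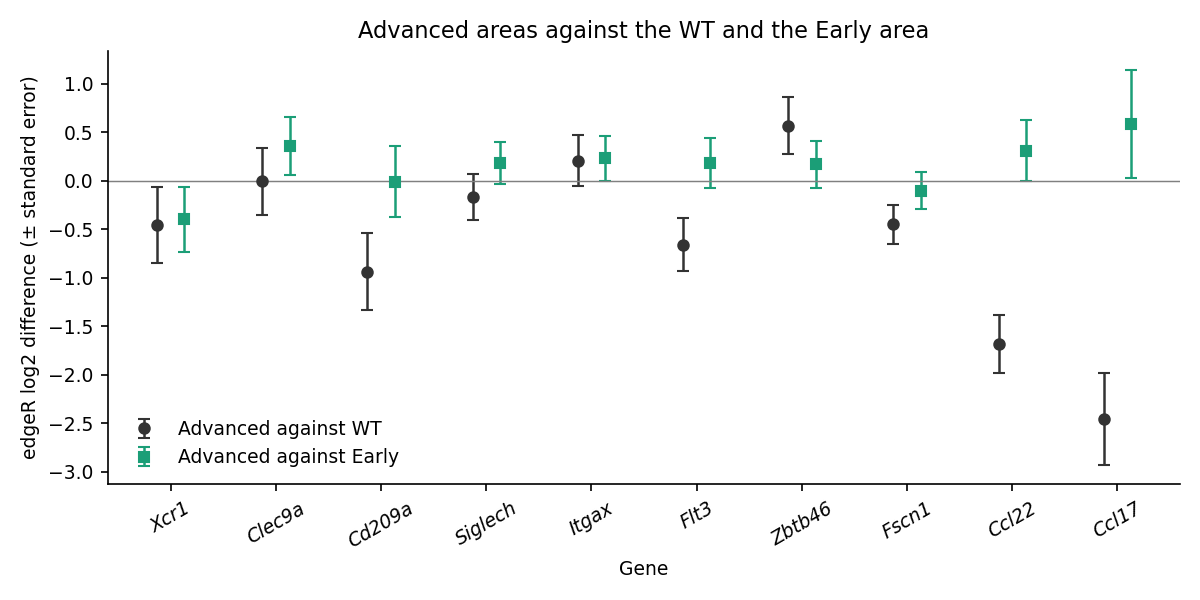
Log2 difference in level from edgeR (y axis, bars are standard errors) of the 2 Advanced areas against the WT area (circles) and against the Early area (squares) for each dendritic cell gene (x axis). Ccl22 (-1.68) and Ccl17 (-2.46) lie far below 0 against WT, while no gene passed against Early.

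How firmly the chemokine differences held depended on the tool and on the spots used. In DESeq2, which gave almost the same log2 differences (-1.68 and -2.46), neither gene passed: the adjusted p of Ccl22 was 0.523 and that of Ccl17 was not returned. On the WT area Ccl17 was found in 27 spots, 14 of its 48 UMIs came from 1 spot and 23 from 1 tile of 6 by 12 array positions. Without that spot the WT level was 0.188 per 10000, and with the fullest spot of each area left out Ccl17 still passed (log2 difference -2.14, adjusted p = 0.00656 in edgeR). Without that tile the WT level was 0.145 per 10000, still above every TNF-Tg area, but with the fullest tile of each area left out Ccl17 no longer passed (log2 difference -1.75, adjusted p = 0.108 in edgeR). Ccl22 was spread over 67 WT spots with at most 5 UMIs in a spot, and it passed without those tiles (log2 difference -1.48, adjusted p = 0.000157 in edgeR). In rim spots alone Ccl22 passed (-2.14, adjusted p = 0.0103 in edgeR) and Ccl17 did not (-2.08, adjusted p = 0.253 in edgeR), and in interior spots alone both passed. Without Advanced area 1 the differences were -1.27 for Ccl22 and -1.97 for Ccl17, and without Advanced area 2 they were -2.20 and -3.13. With the Early area joined to the Advanced areas, Ccl22 (-1.78, adjusted p = 0.00861 in edgeR) and Ccl17 (-2.65, adjusted p = 0.0078 in edgeR) were lower in TNF-Tg than in WT.

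**Figure D3:**
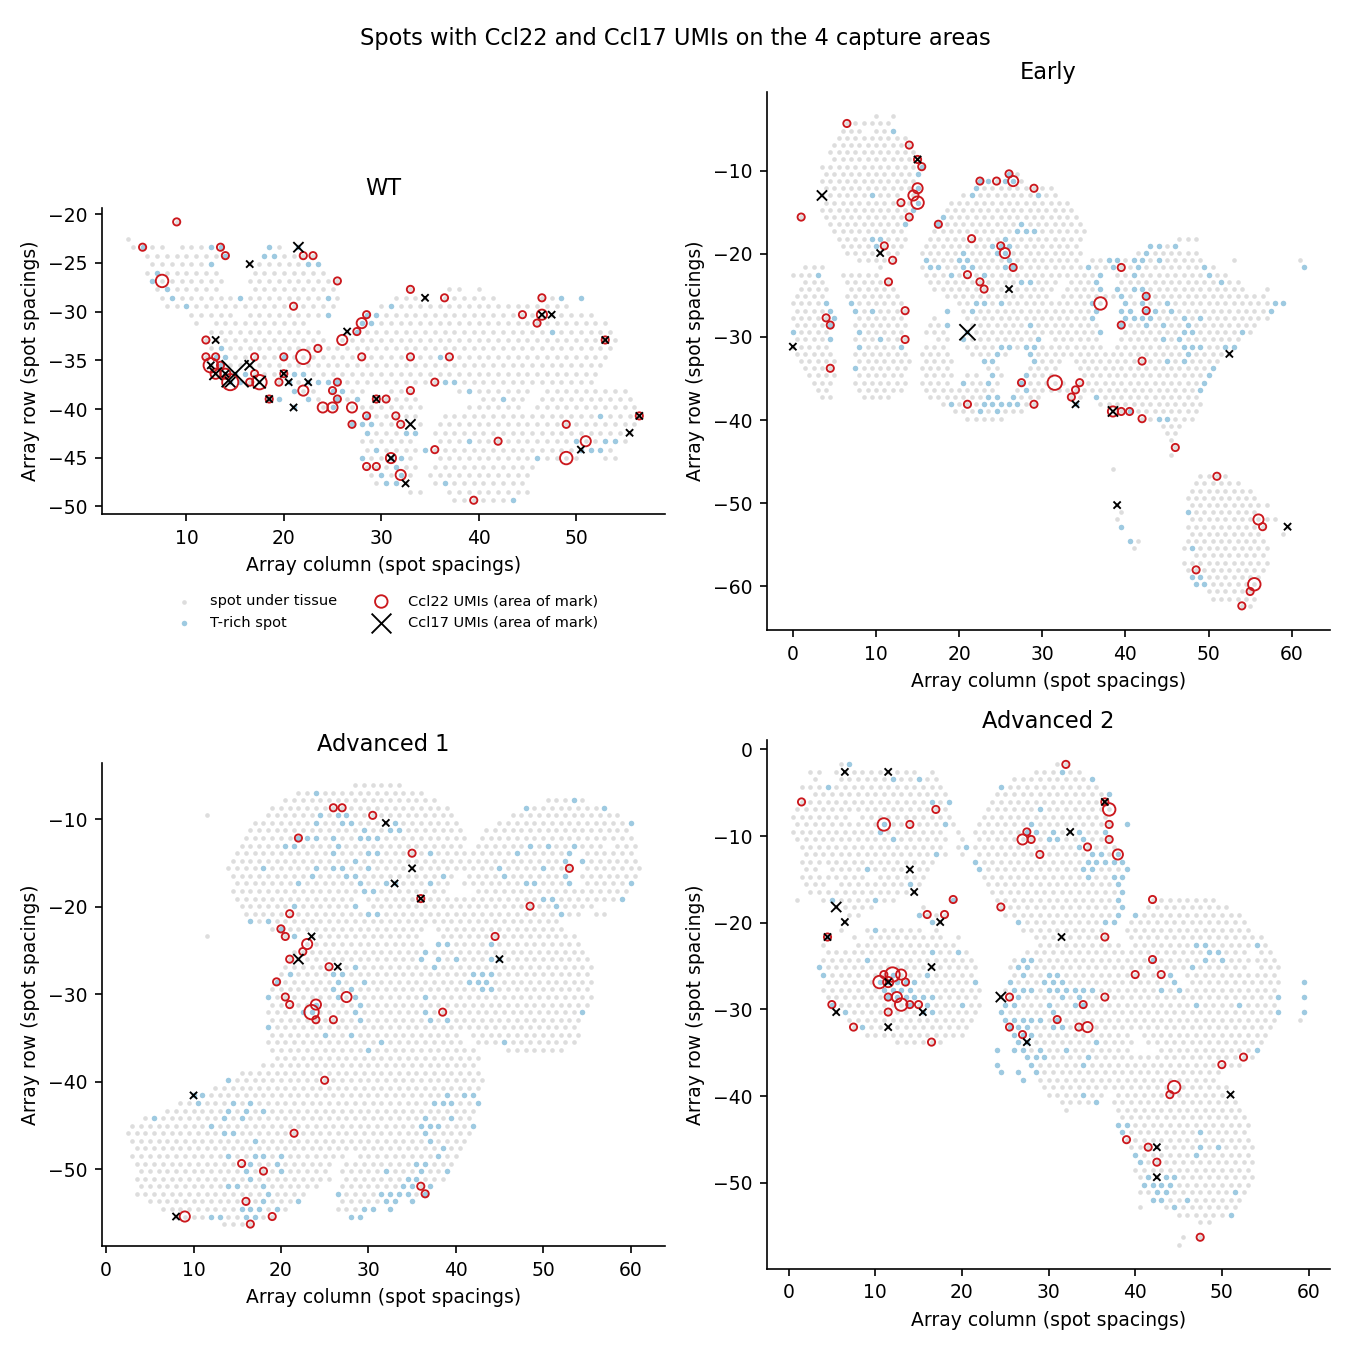
Array positions of the spots under tissue (grey; axes in spot spacings) on the 4 capture areas, with T-rich spots in blue, Ccl22 as red circles and Ccl17 as black crosses, the area of a mark growing with its UMIs. On the WT area a single interior spot, which is T-rich, holds 14 Ccl17 UMIs, and on Advanced 2 Ccl22 is found in 56 spots.

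The T-cell gene level was also highest on the WT area. The 19 T-cell genes used below summed to 18.2 per 10000 on the WT area and to 10.6, 13.3 and 14.4 on the Early, Advanced 1 and Advanced 2 areas, with Trbc2 giving the most UMIs on each, and none was at 0. Within the T-rich spots defined below, Ccl22 took 0.929, 0.286, 0.148 and 0.413 of every 10000 UMIs and Ccl17 0.801, 0.0816, 0.0443 and 0.059. The WT area was highest in both, but its Ccl17 level rested on 25 UMIs, 14 of them from the spot named above, and was 0.354 without it. In 4 classes by T-cell share, given below, Ccl22 took 0.605 in WT class 3, with T-cell genes at 22.6 per 10000. In class 4, the highest, of the TNF-Tg areas it took 0.296, 0.18 and 0.575, with T-cell genes at 25.4, 27 and 33.9. T-rich spots themselves were not matched for T-cell content. Their T-cell genes summed to 38.4 per 10000 on the WT area and to 24.2, 24.6 and 29.5 on the TNF-Tg areas. The log2 difference of Ccl22 between Advanced and WT in these spots was -1.75 (adjusted p = 0.0319 in edgeR). With the T-rich spot of most Ccl17 UMIs left out on each area it was -1.74 and no longer passed (adjusted p = 0.836 in edgeR). In that refit no gene passed, and the WT spot left out held no Ccl22 UMI, so the loss of the call was not particular to Ccl22. The 16 macrophage genes summed to 92, 115, 79.4 and 82.9 per 10000, with Marco giving the most UMIs on the WT and Lyz2 on the other areas. Vsig4 was under the filter. Of the 15 tested, 9 were lower and 1 was higher in Advanced than in WT (3 of these 10 calls in DESeq2). The 12 B-cell genes went the other way from the chemokines, summing to 24.5 on the WT area and to 44.7, 39.4 and 35.5 on the TNF-Tg areas, with Cd79a giving the most UMIs on each and none at 0. Of these 12, 3 were higher and none was lower in Advanced than in WT (1 in DESeq2). The 4 red cell genes summed to 3.71, 14.8, 13 and 10.9, with Hbb-bs giving the most UMIs, and 4 of 4 were higher in Advanced than in WT. Of the 19 T-cell genes 2 were lower, and of 8 neutrophil genes 2 were higher. Of 8 lymphatic endothelial genes 3 were lower and 1 was higher. Fat, plasma cell and monocyte genes had 1 lower each, and blood endothelial genes had 1 higher. None of the genes of these 7 lists passed in DESeq2. The part of all these genes, and of the macrophage, B-cell and red cell genes, in the chemokine differences was not tested.

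The Early area, a single capture area, was set beside the WT area by counts alone. The WT level was 3.87-fold that of Early for Ccl22 (95% interval of counting error 2.82 to 5.34) and 8.09-fold for Ccl17 (4.57 to 15). Without the fullest WT spot the ratio of Ccl17 was 5.73 (3.11 to 10.9). In T-rich spots the ratios were 3.25 (1.79 to 5.99) and 9.80 (3.93 to 29.2), the latter 4.33 (1.47 to 14.3) without that spot. WT and Early mice were of one age, but with 1 area each there is no replicate check.

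Between the Advanced and Early areas no member passed (0 of 10 in edgeR, 0 in DESeq2 and 0 at an unadjusted p under 0.05), where 1.16% of all genes were called in either direction, 0.496% higher and 0.664% lower. The log2 differences ran from -0.40 for Xcr1 (standard error 0.33) to 0.58 for Ccl17 (standard error 0.56), with a median of 0.18 against 0.01 over all genes. Their standard errors of 0.19 to 0.56 bound what could be seen. With 1 Advanced area left out, which allows no test, Ccl17 was at -0.12 or 1.04, Ccl22 at -0.25 or 0.69 and Xcr1 at -0.88 or -0.075, and the signs of Fscn1, Cd209a and Itgax turned as well. These comparisons share the Advanced areas with those against WT. Across all areas, 6 members were higher on the WT area than on each TNF-Tg area and 2 were lower than on each, against 21.2% and 38.7% of all genes.

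Genes related to the members gave a mixed picture. Of 15 tested genes that mature dendritic cells raise, Apol7c was 4.01-fold lower in Advanced than in WT (standard error 0.24 on the log2 scale, adjusted p = 1.68e-14 in edgeR), at 1.09 per 10000 on the WT area and 0.212, 0.314 and 0.272 on the Early, Advanced 1 and Advanced 2 areas. Il4i1, an amino acid oxidase, was higher instead (0.85, standard error 0.18, adjusted p = 0.000464 in edgeR), and no other gene of this list passed. In DESeq2 Apol7c passed (adjusted p = 0.00131) and Il4i1 did not (adjusted p = 0.46). Ccr7, the receptor that guides mature dendritic cells but is also found on T and B cells, took 0.807, 0.766, 0.784 and 0.875 per 10000 and passed in neither condition comparison. Of 10 type 1 related genes, Naaa (-0.96, standard error 0.19, adjusted p = 7.07e-05 in edgeR) was lower and none was higher, and Naaa did not pass in DESeq2 (adjusted p = 0.277). None of 9 type 2 related and none of 12 plasmacytoid related genes passed against WT in edgeR (1 and 2 at an unadjusted p under 0.05), nor in DESeq2. Against Early, Il4i1 was lower in Advanced (-0.64, adjusted p = 0.0144 in edgeR) and the plasmacytoid related gene Ly6c2, which monocytes and T cells also express, was higher (0.76, adjusted p = 0.0185 in edgeR). Neither passed in DESeq2.

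Ligands and receptors of the members were captured unequally. Ccr4, the receptor for CCL22 and CCL17, gave 1, 1, 0 and 1 UMIs on the WT, Early, Advanced 1 and Advanced 2 areas and was not tested. Xcl1, the ligand of XCR1, gave 16, 24, 17 and 22 UMIs. Neither could be compared between conditions with precision. Flt3l, the ligand of FLT3, took 1.22, 0.88, 1.37 and 1.05 per 10000 and passed in neither condition comparison. Ccl21a, a chemokine of reticular cells in the T-cell zone, took 12.2, 4.2, 9.63 and 9.83, lowest on the Early area, and was higher in Advanced than in Early (log2 difference 1.13, standard error 0.16, adjusted p = 6.95e-10 in edgeR). Ccl19 took 4.83, 3.46, 3.57 and 4.23 and passed in neither.

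Position within the section was described by calling a spot rim where fewer than 6 of its neighbours lay under tissue and interior where all 6 did. Where nodes touched, their boundary counted as interior. Rim spots numbered 253, 478, 315 and 402 on the WT, Early, Advanced 1 and Advanced 2 areas and were deeper, with medians of 3166, 5541, 2113 and 3263 UMIs against 140.5, 156, 222 and 250.5. Fat genes were higher at the rim (7 of 7 tested in edgeR, 4 in DESeq2), and so were 4 of 4 red cell genes in edgeR (2 in DESeq2), although on the Advanced 1 area the red cell genes summed to 12.9 per 10000 in rim and 13.1 in interior spots.

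Summed over the members, the level was lower in rim than in interior spots of each area. They took 4.36 per 10000 in rim and 5.89 in interior spots of the WT area, 3.18 and 3.98 of the Early, 3.23 and 4.75 of the Advanced 1, and 3.07 and 4.32 of the Advanced 2 area. In counts summed per area and position, with the area as a block, 9 members could be tested with edgeR, Ccl17 being under the filter. Of these, 2 were lower at the rim and none was higher, where 3.75% of 10998 genes were lower and 4.29% higher. The median over the 9 was -0.28, against 0.00 over all genes, and 1 of them (Cd209a) had a positive difference.

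**Figure D4:**
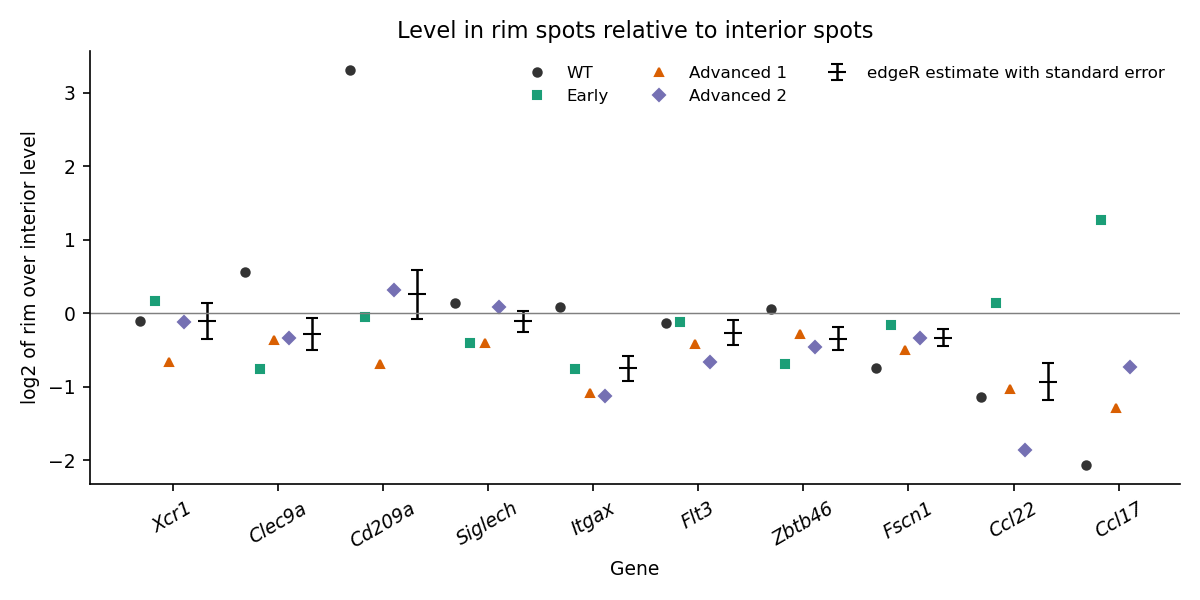
Log2 of the level in rim spots over that in interior spots (y axis) for each dendritic cell gene (x axis) on each capture area (coloured marks), with the edgeR estimate and its standard error in black (none for Ccl17, which was not tested). Itgax lies below 0 on 3 areas and Ccl22 on 3, and the WT point of Cd209a, at the top, rests on 1 interior UMI.

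Itgax took 0.397 per 10000 in rim and 0.375 in interior spots of the WT area, 0.339 and 0.572 of the Early, 0.352 and 0.75 of the Advanced 1, and 0.296 and 0.643 of the Advanced 2 area. It was lower at the rim on the TNF-Tg areas and not on the WT area, with an edgeR log2 difference of -0.75 ± 0.17 (standard error; adjusted p = 0.00676). Whether the WT area differed was tested as an interaction: Advanced minus WT was -1.20 with an adjusted p of 0.401 in edgeR, which did not pass.

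Ccl22 took 0.425 in rim and 0.937 in interior spots of the WT area, 0.14 and 0.127 of the Early, 0.0804 and 0.165 of the Advanced 1, and 0.121 and 0.441 of the Advanced 2 area. It was lower at the rim on 3 of 4 areas, the Early area being the exception, with an edgeR log2 difference of -0.93 ± 0.25 (standard error; adjusted p = 0.0242). The difference of this effect between Advanced and Early was -1.75 (adjusted p = 0.571 in edgeR) and did not pass. Calls for Itgax and Ccl22 were both lost without Advanced area 1 (-0.64 and -0.93, adjusted p = 0.0727 and 0.0555 in edgeR) and without Advanced area 2 (-0.64 and -0.61, adjusted p = 0.0937 and 0.291 in edgeR), and Ccl22 did not pass among spots with at least 500 UMIs (-0.50, adjusted p = 0.335 in edgeR). In DESeq2 Itgax passed (-0.71, adjusted p = 0.0468), and no adjusted p was returned for Ccl22 (-0.92).

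Fscn1 was lower at the rim on 4 of 4 areas, with 1.28 per 10000 against 2.14 on the WT, 1.14 against 1.28 on the Early, 1.06 against 1.51 on the Advanced 1 and 0.926 against 1.17 on the Advanced 2 area, but its edgeR log2 difference of -0.33 ± 0.12 (adjusted p = 0.087) missed the threshold. With a rim of 2 layers of spots it passed (-0.56, adjusted p = 0.0109 in edgeR). Ccl17 gave 23 rim and 25 interior UMIs on the WT area, an interior level 4.17-fold that of the rim (95% counting interval 2.27 to 7.70). Of the interior UMIs 14 came from 1 spot, without which the ratio was 1.84 and its interval included 1 (0.811 to 3.93). On the other areas its intervals included 1. Cd209a gave 38 rim UMIs and 1 interior UMI on the WT area (ratio of levels 9.90, counting interval 1.67 to 401), and on the TNF-Tg areas the intervals of its ratio included 1. The difference of its rim effect between Advanced and WT did not pass (-3.51, adjusted p = 0.24 in edgeR).

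Several related genes followed position. Irf4, a transcription factor of type 2 dendritic cells that is also active in B and plasma cells, was lower at the rim (-0.63, standard error 0.12, adjusted p = 0.00192 in edgeR), and so were Cacnb3, a calcium channel subunit found in mature dendritic cells (-0.78), Flt3l (-0.51), Ccl21a (-0.53) and the plasmacytoid related genes Atp1b1 (-0.48) and Irf7 (-0.41). Il4i1 (0.77), Tmem123 (0.48) and Dtx1 (0.50) were higher. In DESeq2 Irf4, Flt3l, Ccl21a, Il4i1 and Tmem123 passed, and Cacnb3 (adjusted p = 0.0579), Atp1b1 (0.225), Irf7 (0.165) and Dtx1 (0.169) did not. Of 19 T-cell genes 9 were lower and none higher at the rim, of 12 B-cell genes 6 were higher and none lower, and of 8 MHC class II genes, which B cells also express strongly, 5 were higher and none lower.

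Relation to T cells was examined by the share of a spot's UMIs that fell on the 19 T-cell genes, none of which is a member. Among spots with at least 500 UMIs, those in the top 25% by this share within each area and position were called T-rich. In T-rich spots the T-cell genes summed to 38.4, 24.2, 24.6 and 29.5 per 10000 on the WT, Early, Advanced 1 and Advanced 2 areas, against 13.3, 8.26, 9.96 and 9.68 in the other spots.

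Of the 9 members tested, Ccl22 and Fscn1 were higher in T-rich than in the other spots and none was lower, where 0.595% of 10249 genes were higher and 0.585% lower. Ccl22 took 0.929 per 10000 in T-rich and 0.356 in the other spots of the WT area, 0.286 and 0.104 of the Early, 0.148 and 0.0912 of the Advanced 1, and 0.413 and 0.119 of the Advanced 2 area. It was higher in T-rich spots on 4 of 4 areas, with an edgeR log2 difference of 1.38 ± 0.24 (standard error; adjusted p = 0.000732), or 2.59-fold. On the Advanced 1 area the ratio of 1.62 rested on 10 and 23 UMIs, and its counting interval included 1 (0.688 to 3.54). Fscn1 took 2.56 and 1.11, 1.27 and 1.1, 1.32 and 1.16, and 1.40 and 0.796, higher on 4 of 4 areas but by little on the Early and Advanced 1 areas, whose ratios had counting intervals that included 1. Its log2 difference was 0.55 (standard error 0.14, adjusted p = 0.0328 in edgeR).

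The call for Ccl22 held without any single area and was lost in rim spots alone (0.91, adjusted p = 0.294 in edgeR). That for Fscn1 was lost without the WT area (0.38, adjusted p = 0.182 in edgeR), without the Early area (0.70, adjusted p = 0.056), without Advanced area 2 (0.47, adjusted p = 0.369) and in DESeq2 (0.58, adjusted p = 0.22). The other 7 members lay between -0.03 (Zbtb46, standard error 0.18) and 0.31 (Flt3, standard error 0.19). Ccl17, under the filter, took 0.801 in T-rich and 0.16 in the other spots of the WT area, a ratio of 5 (counting interval 2.72 to 9.21). Without the spot with 14 UMIs the T-rich level was 0.354 and the ratio 2.21, with an interval that included 1 (0.971 to 4.71). On the TNF-Tg areas its intervals included 1.

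**Figure D5:**
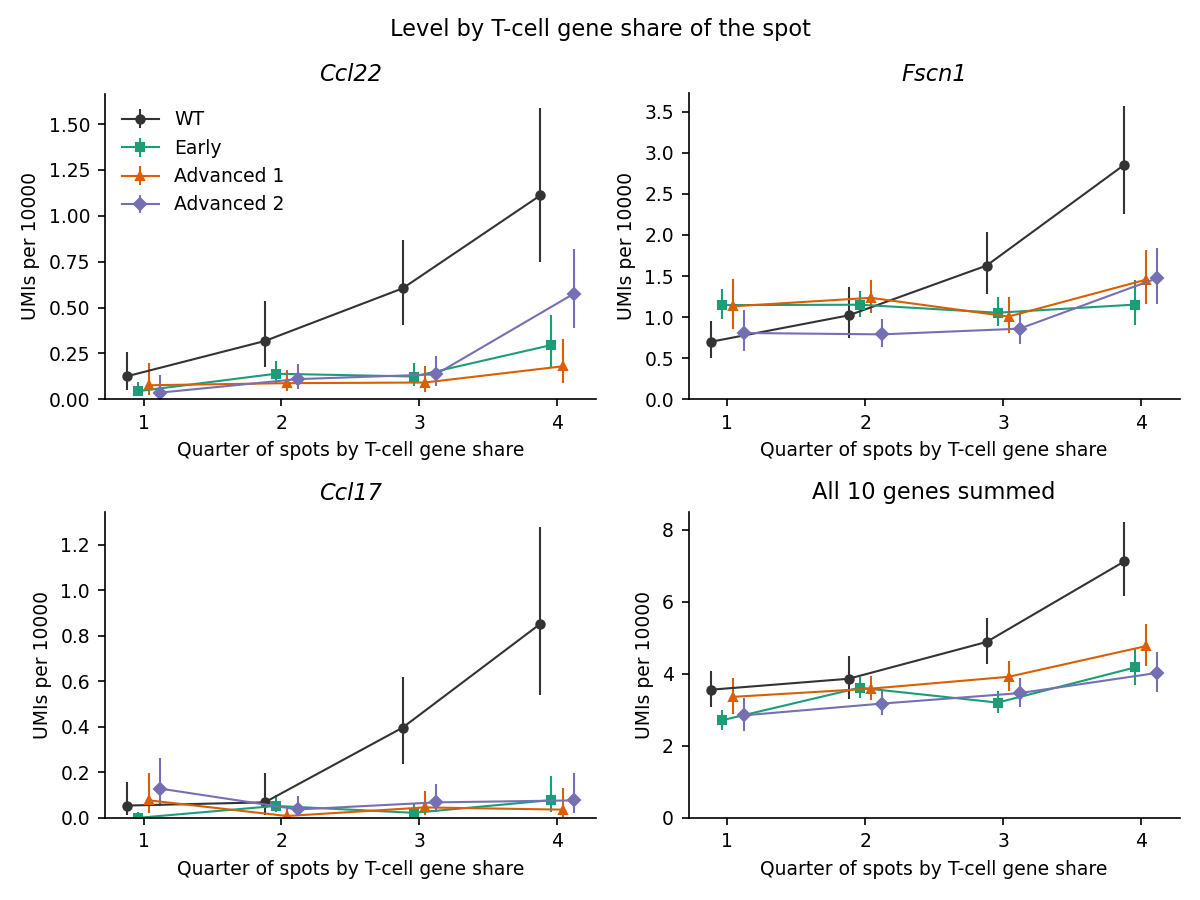
UMIs per 10000 (y axes, 95% Poisson intervals) of Ccl22, Fscn1, Ccl17 and all 10 genes summed in spots with at least 500 UMIs, split on each area into 4 classes of equal size by T-cell gene share (x axes, 4 highest). Ccl22 is highest in class 4 on every area, and on the WT area Ccl22 and Fscn1 are higher in each class than in the one before, whereas the WT point of Ccl17 in class 4 includes the spot with 14 UMIs and is 0.335 without it, below the 0.396 of class 3.

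Split into 4 classes of equal size by T-cell gene share, spots of the WT area had 0.126, 0.318, 0.605 and 1.11 Ccl22 UMIs per 10000 from the lowest to the highest class. Advanced 2 had 0.0367, 0.11, 0.136 and 0.575, Early 0.0444, 0.14, 0.124 and 0.296, and Advanced 1 0.0767, 0.0882, 0.0916 and 0.18. The highest class was highest on all 4 areas. Fscn1 went from 0.7 to 2.85 on the WT area and from 0.807 to 1.48 on Advanced 2, but from 1.15 to 1.15 on the Early area and from 1.13 to 1.46 on Advanced 1. For the members together the lowest and highest class had 3.56 and 7.12 on the WT, 2.71 and 4.18 on the Early, 3.36 and 4.77 on the Advanced 1 and 2.84 and 4.02 on the Advanced 2 area. Spot by spot, Spearman's rho of the Ccl22 level with the T-cell share was 0.17 over 356 WT, 0.07 over 707 Early, 0.01 over 803 Advanced 1 and 0.13 over 815 Advanced 2 spots, which share libraries and depth. Only 54, 51, 26 and 43 of these spots had a Ccl22 UMI, in the same order, and ties among the rest keep rho low. With the depth of the spot, rho of the Ccl22 level was 0.29, 0.19, 0.13 and 0.14.

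Of 15 tested genes of mature dendritic cells, 2 were higher in T-rich spots and none was lower. They were Apol7c (log2 difference 1.14, standard error 0.17, adjusted p = 0.000117 in edgeR) and Cacnb3 (1.11, standard error 0.17, adjusted p = 9.49e-05 in edgeR). The median over the 15 was -0.04, and the sum over all 16 genes of the list was higher in T-rich than in the other spots on the WT area (16.9 against 12 per 10000) but not on the Early (15.8 against 19.7), Advanced 1 (13.9 against 15.7) and Advanced 2 (15.5 against 15.9) areas. Ccl21a (1.08) and Ccl19 (0.58), chemokines of the T-cell zone, and Ly6c2 (0.90) were higher. None of 9 type 1 and none of 9 type 2 related genes passed in edgeR (3 of each at an unadjusted p under 0.05), nor in DESeq2. Of 14 macrophage genes tested 8 were lower (3 in DESeq2) and none higher, Cd163 and Vsig4 being under the filter. The macrophage genes summed to 50.7, 76.7, 64 and 66.4 per 10000 in T-rich and 104, 123, 86.5 and 90.2 in the other spots. Of 4 red cell genes 4 were lower (2 in DESeq2), and of 12 B-cell genes 2 were lower (1 in DESeq2). Of 3 NK cell genes tested 1 was higher (0 in DESeq2). The part of these genes in the Ccl22 and Fscn1 differences was not tested.

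Against B-rich spots, the top 25% by the share of 12 B-cell genes among spots that were not T-rich, 6 members could be tested and 3 were higher in T-rich spots, where 7.41% of 7966 genes were higher and 4.86% lower. Fscn1 was higher by 0.89 (standard error 0.18, adjusted p = 0.000488 in edgeR), Ccl22 by 1.36 (standard error 0.37, adjusted p = 0.0107) and Siglech by 1.28 (standard error 0.26, adjusted p = 0.000744). Each was higher on 4 of 4 areas, but some counting intervals of the ratio on single areas included 1. These were Siglech on WT (0.864 to 8.32) and Advanced 1 (0.91 to 3.32), and Fscn1 on Advanced 1 (0.895 to 2.06). Those of Ccl22 on WT (0.802 to 3.49) and Advanced 1 (0.37 to 5.60) did so too. Siglech took 0.577, 0.599, 0.68 and 0.605 per 10000 in T-rich spots of the WT, Early, Advanced 1 and Advanced 2 areas. In B-rich spots Siglech took 0.239, 0.227, 0.403 and 0.235, in the same order. It did not differ past the threshold between T-rich and all other spots (0.07, standard error 0.15). In this comparison 10 of 12 macrophage, 5 of 5 fat, 5 of 7 lymphatic endothelial, 3 of 5 blood endothelial, 5 of 6 stromal reticular, 4 of 6 neutrophil and 3 of 4 monocyte genes tested were also higher in T-rich spots in edgeR, and their part in the Siglech difference was not tested. Of the related genes, Batf3 (1.1), Naaa (0.90) and Ppt1 (0.52) of the type 1 list, Clec10a (1.21) of the type 2 list, Apol7c (1.16) and Cacnb3 (1.09) of the mature list and Ly6c2 (1.62) and Atp1b1 (0.88) of the plasmacytoid list were higher in T-rich spots. Wdfy4 (-0.44), Dtx1 (-0.81), Cd83 (-0.64), Il4i1 (-0.64) and Spib (-0.79) were lower, in the same edgeR fit. Of these only Ly6c2, Il4i1 and Spib passed in DESeq2. Ccl22 lost its call without the Early area (1.25, adjusted p = 0.0903 in edgeR), without Advanced area 2 (0.97, adjusted p = 0.143) and in DESeq2 (1.39, adjusted p = 0.131), where Fscn1 (adjusted p = 0.0239) and Siglech (adjusted p = 0.0468) passed.

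Neither the rim effect nor that of T-rich against other spots differed between conditions past the threshold for any of the 9 members tested in edgeR, where few genes were called at all. For the rim effect 0.273% of 10998 genes were called in Advanced minus WT and 0.0546% in Advanced minus Early, and for the T-rich effect 0.644% and 0.244% of 10249 genes. At an unadjusted p under 0.05 there were 2, 1, 1 and 1 members, in the same order. For T-rich against B-rich spots this was not tested. The smallest unadjusted p was 0.00162, for Ccl22 at the rim in Advanced minus Early (adjusted p = 0.571 in edgeR). For Fscn1 the T-rich effect in Advanced minus WT was -0.63 (adjusted p = 0.415 in edgeR).

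Neighbourhoods were described over 239 tiles of 6 rows by 12 columns with at least 5000 UMIs, comparing how far each gene's count departed from what its area's mean level and the tile's depth gave (Pearson residuals). The values are descriptions over tiles that share libraries. Fscn1 and Ccl22 had the highest correlation of the 45 member pairs (r = 0.53), followed by Clec9a with Siglech (0.32), Xcr1 with Flt3 (0.25) and Fscn1 with Ccl17 (0.24). Ccl22 and Ccl17 had r = 0.20, and the lowest pair was Ccl17 with Siglech (-0.12). The genes of mature dendritic cells thus kept nearer to each other than to Siglech.

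Against the summed T-cell genes, Fscn1 (0.36) and Ccl22 (0.36) had the highest r of the members, and Zbtb46 (0.02) and Xcr1 (0.03) the lowest. Against the summed B-cell genes, 8 members were negative, from Siglech (-0.43) to Ccl22 (-0.01), and Fscn1 and Ccl17 were at 0.02. Siglech had the highest r with the macrophage (0.41) and lymphatic endothelial genes (0.41), where Ccl22 had -0.19 and -0.09. Cd209a had its highest r with the stromal reticular genes (0.23).

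Over the same tiles, and on log2 levels centred within areas, the 10 genes of 5308 whose level was most like that of the summed members were Ccl5 (r = 0.49), a chemokine of activated T and NK cells, Ccl21a (0.46), H2-K1 (0.44), a classical MHC class I chain, Ccl19 (0.44), H2afz (0.44), Cd8a (0.41), the CD8 alpha chain that some type 1 dendritic cells also carry, Actb (0.39), Cxcl16 (0.39), Nisch (0.37) and Trbc1 (0.36). Over 387 smaller tiles of 4 rows by 8 columns the same 10 genes ranked from 1 (Ccl5) to 36 (Nisch), Ccl5 and Ccl21a being among the first 10. The summed members' level had a correlation of -0.04 with tile depth.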

How the data were processed

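Per the labels, poly-adenylated RNA of 10 µm PLN sections was captured on 1 Visium slide and sequenced. The authors ran Space Ranger 1.1.0 (mm10/GRCm38) and deposited raw UMI counts of each gene in each spot under tissue, not normalized, for 4 areas. The members and lists were chosen with earlier results of these data known. Here, counts were summed per area, or per area and spot class, and tested with edgeR 4.0.16 (TMM, filterByExpr, glmQLFit and glmQLFTest; area as block for spot classes; groups over 4 areas for conditions) at an adjusted p of 0.05. DESeq2 1.42.0, RLE scaling, no filter, other spot sets and leaving out areas were alternatives, and fits on T-rich spots, without the fullest Ccl17 tile or spot, with Early joined to Advanced and with interactions were added after the data had been seen. UMIs per 10000 carry 95% Poisson intervals. On simulated counts edgeR recovered 200 of 200 genes changed 4-fold among 10974 (rim) with 4 false calls, and 200 of 200 among 12958 (Advanced against Early) with 6. The changed genes were drawn only from genes with more UMIs than Xcr1, Clec9a, Cd209a, Ccl22 and Ccl17 had, and the spread was fixed beforehand. This recovery therefore does not extend to those sparse members. All 10 members are named in the text, but not each of them in every comparison. Also named are up to 5 passing genes of each related list, Flt3l, Xcl1, Ccr4, Ccr7, Ccl19 and Ccl21a. The 10 genes most like the summed members over tiles are named as well. TTAAATA was chosen after reading the promoters. Coordinates are from GENCODE M21 and promoters from RefSeq, which matched all 10 members. UMI counts of a gene were not scaled by its length, so levels are compared between samples, and the gene of a list with most UMIs need not be the highest per length.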

Additional observations from a re-analysis of the deposited data

How the results depend on the processing

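Members gave 99 to 1635 UMIs each over the 4 areas, and 1 area each stood for WT and for Early. No paired analysis was possible because no 2 groups share more than 1 replicate number, and these mark no common mice. Main counts of members (and of all genes) passing were 2 (884) for rim against interior, 2 (121) for T-rich against other spots, 3 (977) for T-rich against B-rich, 0 (152) for Advanced against Early and 2 (272) for Advanced against WT. Where a count or sign changed, the cause was not tested, apart from settings that test fewer genes or spots.

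DESeq2 gave 1 (421), 1 (54) and 2 (310) for the first 3 of these, 7 genes for Advanced against Early, and 0 (33) for Advanced against WT. Leaving out each area in turn gave 0 to 3 members (279 to 1136 genes) for the rim, 1 to 2 (52 to 178) for T-rich against other and 2 to 3 (421 to 1014) for T-rich against B-rich spots. Leaving out either Advanced area, with no test, gave -0.12 to 1.04 for Ccl17, -0.25 to 0.69 for Ccl22, -0.30 to 0.034 for Fscn1, -0.12 to 0.062 for Cd209a, -0.0016 to 0.39 for Itgax and -0.88 to -0.075 for Xcr1 in Advanced against Early. Over the former the log2 difference at the rim ran from -0.30 to 0.12 for Xcr1 and from -0.082 to 0.64 for Cd209a, and that of T-rich spots from -0.10 to 0.35 for Xcr1, -0.23 to 0.38 for Clec9a, -0.093 to 0.10 for Cd209a, -0.17 to 0.30 for Itgax and -0.082 to 0.036 for Zbtb46. None of these passed. With spots of at least 500 UMIs the rim gave 1 (564), and Cd209a turned to 0.10 in Advanced against Early. A rim of 2 layers gave 478 genes, with Xcr1 at 0.012 and Cd209a at -0.18. With no filter T-rich against other spots gave 196 genes, with Cd209a at -0.015, and Clec9a in Advanced against WT was at 0.0014.

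For T-rich against other spots, interior spots alone gave 1 (77) with Siglech at -0.22, rim spots alone 0 (65) with Xcr1 at -0.048, Clec9a at -0.25 and Zbtb46 at 0.15, spots of at least 1000 UMIs 1 with Zbtb46 at 0.016, and the top 10% in place of 25% left Xcr1 at -0.48, Clec9a at -0.54 and Siglech at -0.31. For T-rich against B-rich, interior spots alone gave 1 (109) and the top 10% 1 (552), each with 1 member tested.

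For Advanced against WT, interior spots alone gave 40 genes with Clec9a at 0.69, Cd209a at 2.17 and Siglech at 0.0499, rim spots alone 1 (126) with Itgax at -0.40, T-rich spots alone 37 genes with Clec9a at 1.21 and Siglech at 0.13, leaving out the fullest Ccl17 tiles 1 member, and joining Early to Advanced 100 genes. For Advanced against Early, interior spots alone gave 36 genes with Xcr1 at 0.052, Cd209a at 0.12, Fscn1 at 0.054 and Zbtb46 at -0.066, rim spots alone 18 genes with Itgax at -0.14, Flt3 at -0.035 and Ccl22 at -0.52, and T-rich spots alone 30 genes with Xcr1 at 0.028, Clec9a at -0.41, Itgax at -0.47, Fscn1 at 0.081, Ccl22 at -0.046 and Ccl17 at -0.66. T-rich spots alone without the one with most Ccl17 UMIs on each area gave 0 (0) in both comparisons, with Clec9a at 1.21 and Siglech at 0.12 against WT, and Clec9a at -0.40, Itgax at -0.49, Fscn1 at 0.048 and Ccl22 at -0.040 against Early. The tiles of 4 by 8 positions shared 2 of the 10 most like genes.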
